A study of Homo sapiens with 12 samples.

Results

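Extracellular matrix genes were followed in HK-2 cells, an established and immortalised human kidney proximal tubule line. They were 47 genes, taken by name from the 35238 genes of the deposited expression table: collagens, laminins and basement membrane proteoglycans, matrix glycoproteins, collagen modifying enzymes, and the proteases and inhibitors that remodel matrix. All cells were transfected with 10 nM of short interfering RNA, either scrambled (SCR) or directed at POLR2A (siB), the gene of RPB1, the catalytic subunit of RNA polymerase II. Treatment started with the transfection and lasted 24 hours, with 25 µM aristolochic acid I (AAI), a nephrotoxin of Aristolochia plants that forms DNA adducts, or with its solvent DMSO alone. Bulk RNA sequencing gave 3 libraries in each of 4 groups: SCR DMSO, SCR AAI, siB DMSO and siB AAI. There was no untransfected group and 1 knockdown sequence, the knockdown was transient, and the labels do not say whether replicates were separate cultures, so that p-values measure the spread between these libraries, which may be technical.

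Kidney tubule cells rest on a basement membrane built from a type IV collagen network and a laminin network, tied together by nidogen and by the heparan sulfate proteoglycans perlecan (HSPG2) and agrin (AGRN). Fibrillar collagens, fibronectin (FN1) and fibrillins make up the interstitial matrix, which builds up in kidney fibrosis and comes mainly from fibroblasts and pericytes, with injured tubule cells as a further source. Lysyl oxidases crosslink this matrix. Metalloproteinases and the plasminogen activators PLAU and PLAT degrade it, and TIMPs and serpins hold those enzymes in check.

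Promoter sequence is given for type IV collagens. COL4A1 and COL4A2 encode the chains of the common type IV collagen network and lie head to head on chromosome 13, with start sites 127 bases apart, so that 226 of the 300 bases in their RefSeq promoter windows are shared. COL4A5, on the X chromosome, encodes a chain that the differentiated glomerular and tubular basement membrane uses and that is altered in Alport syndrome. It is shown because it had the largest decrease under AAI of the 47 genes where tested, in SCR and in siB cells. The 250 bases before each start are given 5′ to 3′ on the strand of the gene, from RefSeq on GRCh38.p14, at chr13:110307158-110307407 (minus strand) for COL4A1 and chrX:108439588-108439837 (plus strand) for COL4A5. Capitals mark matches to the GC box (GGGCGG) or the CCAAT box (CCAAT), read on both strands.
COL4A1: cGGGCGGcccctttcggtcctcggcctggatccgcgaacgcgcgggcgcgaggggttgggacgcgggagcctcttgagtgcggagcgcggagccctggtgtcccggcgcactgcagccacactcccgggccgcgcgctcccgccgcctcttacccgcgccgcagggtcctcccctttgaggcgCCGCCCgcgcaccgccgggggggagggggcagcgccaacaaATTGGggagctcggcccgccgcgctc
COL4A5: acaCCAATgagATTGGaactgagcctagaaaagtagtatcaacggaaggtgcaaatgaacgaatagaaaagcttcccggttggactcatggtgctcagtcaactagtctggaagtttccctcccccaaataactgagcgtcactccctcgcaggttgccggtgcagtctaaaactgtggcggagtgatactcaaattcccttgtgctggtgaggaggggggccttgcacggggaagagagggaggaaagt
The COL4A1 window held 2 GC boxes and 1 CCAAT box, whereas that of COL4A5 held 2 CCAAT boxes close together and no GC box. RefSeq windows of 300 bases were matched for 34 of the 47 genes, and 70.6% of them held a GC box, against 44.6% of all 27305 promoters. CCAAT was present in 38.2% against 35.7%, the TATA box TATAAA in 11.8% against 12%, and the AP-1 letters TGANTCA in 5.9% against 7.8%. The 27305 promoters were not limited to genes expressed in these cells, so the shares were not compared with those of genes of like expression. These are matches of letters and not measured binding.

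Depth ran from 15844015 to 42805294 reads per library, and 0 reads allowed a level of up to 0.0701 to 0.189 counts-per-million (CPM). POLR2A was at 284 ± 24.2 CPM (SD, n = 3) in SCR DMSO, 707 ± 30.1 in SCR AAI, 140 ± 2.61 in siB DMSO and 232 ± 29.5 in siB AAI, so every siB library lay below every SCR library of the same treatment. Kidney epithelium markers were present, with 8 of 9 at a mean of at least 1 CPM. Their summed level was lower under AAI without overlap, at 2030 to 2631 CPM in SCR DMSO, 1778 to 1953 in SCR AAI, 2144 to 2287 in siB DMSO and 1517 to 1629 in siB AAI. A mean of at least 1 CPM was reached by 3 of 9 markers of the differentiated proximal tubule, and megalin (LRP2) was at a median of 0.218 CPM. Of 7 fibroblast and pericyte markers, 4 had a mean of at least 1 CPM, and their summed level was 18.3 to 45.7 CPM in SCR DMSO, 23.02 to 34.3 in SCR AAI, 37.6 to 39.6 in siB DMSO and 29.5 to 51.4 in siB AAI, with overlap between all groups under the same siRNA. The 5 endothelial markers, 4 of them under 1 CPM in every library, summed to 4.34 to 6.06 CPM in siB AAI and 1.22 to 2.59 in the other groups, led by PECAM1. Of 5 leukocyte markers, 3 had a mean of at least 1 CPM, and their sum overlapped between groups at 60.6 to 98.5 CPM. PTPRC and CD14 also had their highest group means in siB AAI, at 2.70 and 2.54 CPM. CD68, which made up most of the sum, had its lowest there, at 68.7 CPM. The part of these marker levels in the results was not tested. SCR DMSO replicate 2 was the deepest library. It stood apart from its group in its median-ratio size factor relative to total reads, 0.768 against 1.06 and 0.954. Results that rest on it are given with and without it. It had the highest level in 19 and the lowest in 13 of the 41 matrix genes tested over all groups, which alone would not set 1 of 3 libraries apart. Across those genes the median coefficient of variation was 34.4% in SCR DMSO, 20.5% in SCR AAI, 9.07% in siB DMSO and 23% in siB AAI.

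Basement membrane genes and fibronectin were among the most abundant. Per kilobase of exon, and as a mean of the 12 libraries, fibronectin stood highest at 498 CPM per kb. AGRN followed at 148, the protease PLAU at 143, the matricellular protein SPARC at 142 and the crosslinking enzyme LOXL2 at 118 CPM per kb, and these 4 were not tested against each other. The type IV chains COL4A2 and COL4A1 were at 90.4 and 82.9 CPM per kb. The chains of type I collagen lay far apart, since COL1A1 stood at 2.87 CPM per kb and COL1A2, the partner chain of the same trimer, at 0.0502. There were 6 genes too low to test between any 2 groups: COL1A2, COL3A1, COL13A1, MMP2, MMP3 and TIMP3. COL3A1, COL13A1, MMP2, MMP3 and TIMP3 did not exceed 0.379 CPM in any library, and the gelatinase MMP2 was at or under the limit of 0 reads in 10 of 12. Most of these genes share bases with another annotated gene (37 of 47, and 15 with a protein-coding one), and the sources do not state whether counting used strand, so that reads of the overlapping stretches could not be assigned with certainty.

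**Figure D1:**
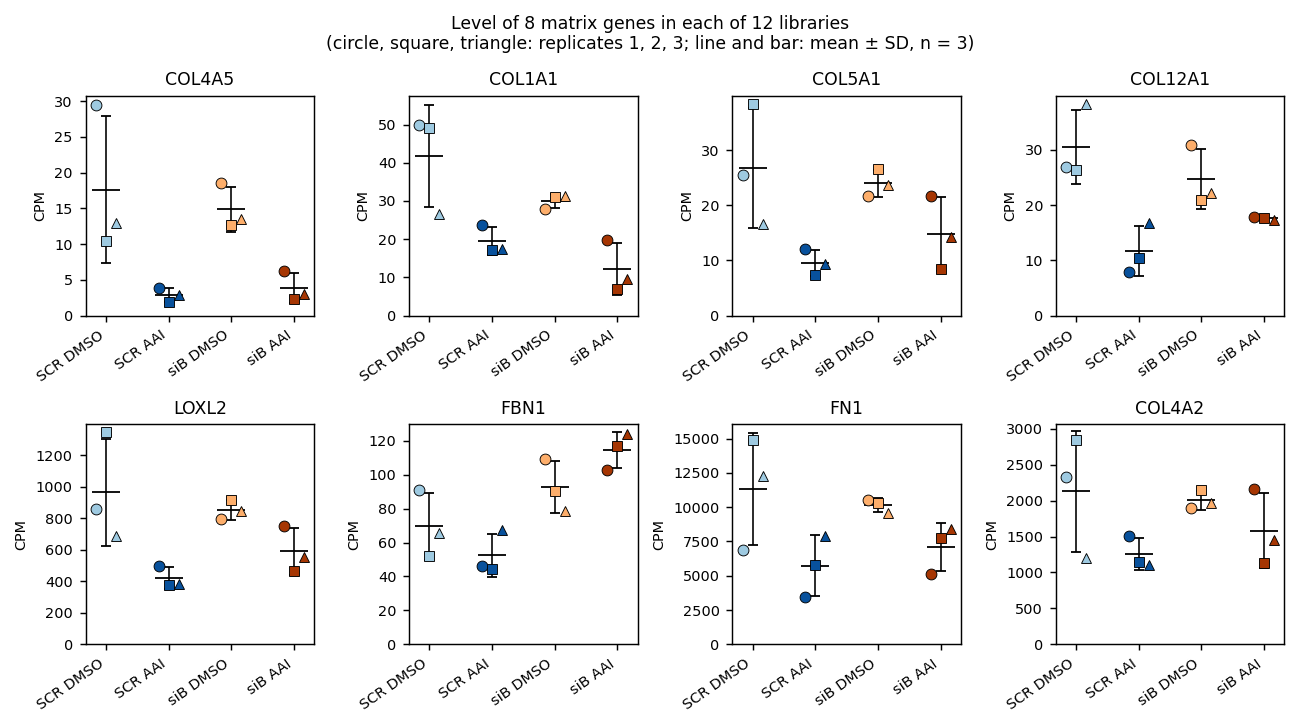
CPM of 8 matrix genes in each library, by group, with the mean and SD of 3 libraries. COL4A5 was at 1.95 to 6.25 CPM in the AAI libraries and 10.5 to 29.4 CPM in the DMSO libraries, whereas FBN1 had its highest group mean in siB AAI (115 CPM).

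In SCR cells, the comparison of AAI with DMSO asked how matrix genes behaved under AAI without knockdown, in cells where POLR2A itself was raised (log2 change 1.32 ± 0.19; adjusted p = 0.00321). On the scale of CPM + 1, COL4A5 decreased about 4-fold, and COL12A1, COL5A1 and LOXL2 decreased more than 2-fold. In CPM itself the decrease of COL4A5 was larger, from a mean of 17.6 to 2.92. Of the 12 collagens tested, 4 fell, 7 others were lower without passing and COL6A1 was at 0.08 ± 0.25 (adjusted p = 0.875). None of the 40 genes tested rose. Bulk libraries cannot tell fewer cells with a transcript from less of it per cell.

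COL4A5 was at 29.4, 10.5 and 13.0 CPM in SCR DMSO and at 3.92, 1.95 and 2.90 CPM in SCR AAI. The groups did not overlap, although replicate 1 of SCR DMSO was more than 2 times as high as its partners. Its log2 change, on log2(CPM + 1) as everywhere below, was -2.15 ± 0.41 (SE; limma adjusted p = 0.012). COL12A1, a collagen that binds the surface of type I fibrils, was at 27.0, 26.4 and 38.3 CPM in SCR DMSO and 7.84, 10.5 and 16.7 CPM in SCR AAI (log2 change -1.36 ± 0.33; adjusted p = 0.0326). Every AAI library lay below every DMSO library. COL5A1, which encodes a chain of type V collagen that sets the width of collagen fibrils, was at 25.5, 38.4 and 16.6 CPM in SCR DMSO and 12.1, 7.34 and 9.28 CPM in SCR AAI (-1.34 ± 0.35; adjusted p = 0.0458). LOXL2, a lysyl oxidase that crosslinks type IV collagen, was at 857, 1346 and 689 CPM in SCR DMSO and 499, 377 and 383 CPM in SCR AAI (-1.15 ± 0.29; adjusted p = 0.0369). In both genes the highest DMSO value came from replicate 2, and again the groups did not overlap.

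These 4 were the genes lowered at least 2-fold, 4 of 40 tested, where 2.73% of all 14228 genes tested were lowered. None of the 40 was raised (7.73% of all genes), with 2 at an unadjusted p under 0.05 in that direction and 0 raised by limma with voom. With COL5A2 (-0.99 ± 0.23; adjusted p = 0.0286), another type V collagen chain, 5 genes fell at any fold and 0 rose (3.36% and 8.98% of all genes). COL5A2 was at 2.24 ± 0.66 CPM in SCR DMSO and 0.62 ± 0.27 in SCR AAI. At these levels the pseudocount of 1 holds its change below 2-fold, and it was lowered with a pseudocount of 0.1. In the fit of all 4 groups 9 of 41 fell and 3 rose. Shares of all genes were not taken for that fit or for the repeats that follow without 1 library. Without SCR AAI replicate 1, 2 or 3, the number lowered was 1 (COL4A5), 0 and 1 (COL12A1), with adjusted p of 0.0669 and 0.0602 for COL4A5 where it was lost and 0.0795 to 0.153 for LOXL2 in all 3. Without SCR DMSO replicate 2 it was 5, with COL5A2 and LAMA5 added and LOXL2 short of 2-fold, without replicate 1 COL5A1 was lost (0.0682) and FBN2 added, and without replicate 3 COL12A1 was lost (0.128) and COL1A1 added. Same-numbered libraries deviated together in this comparison, and with the replicate number as a block 7 genes were lowered (3.79% of all genes), the additions being COL1A1 (adjusted p = 0.0236), COL4A1 (0.04) and FBN2 (0.0153), and 11 fell at any fold (6.4% of all genes).

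Most matrix genes lay lower in AAI, called or not. Of the 40 genes, 31 (77.5%) were lower in AAI, against 38.2% of all genes tested, with a median log2 change of -0.43 against 0.18. Leaving out any 1 library kept 30 to 33 lower and a median of -0.57 to -0.40. Scaling by median-ratio size factors in place of total reads moved the median of all genes by -0.19, and 36 of 40 matrix genes were then lower. Under that scaling the genes called over the whole table divided as 925 raised and 698 lowered, against 1100 and 389.

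By role, all 3 tested fibrillar collagens (COL1A1, COL5A1 and COL5A2) and all 5 type IV, VII and XVIII basement membrane collagens were lower, 2 and 1 of which fell. COL1A1 was at 50.05, 49.0 and 26.5 CPM in SCR DMSO and 23.7, 17.2 and 17.5 CPM in SCR AAI. The groups did not overlap, yet the change of -1.02 ± 0.31 did not pass the test without the block (adjusted p = 0.0738). COL4A2 ran from 1207 to 2846 CPM in SCR DMSO and from 1105 to 1508 CPM in SCR AAI, with overlap (-0.69 ± 0.34; adjusted p = 0.246). Laminins and basement membrane proteoglycans had a smaller median change, -0.28 over 8 genes. None passed without the block, and with it LAMA5 did (-0.96 ± 0.23; blocked adjusted p = 0.0243). AGRN was at -0.41 ± 0.27 (adjusted p = 0.369).

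Fibronectin binds integrins, collagens and cells together in the matrix. FN1 was at 6862, 14880 and 12298 CPM in SCR DMSO and at 3437, 5813 and 7882 CPM in SCR AAI, so that replicate 1 was lowest in both groups and the groups overlapped. The change was -0.998 ± 0.42 (adjusted p = 0.17, and 0.0459 in the fit of all 4 groups). All 5 glycoproteins and all 4 matricellular genes were lower, with medians of -0.57 and -0.59. None passed without the block, and with it FBN2 (blocked adjusted p = 0.0153) and TNC (0.0494) did. SPARC, a collagen-binding matricellular protein, was at -0.54 ± 0.32 (adjusted p = 0.326).

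No protease or protease inhibitor among the 40 passed in the fit of SCR cells. MMP14, the membrane-anchored collagenase, was at 232 ± 59.4 CPM in SCR DMSO and 244 ± 43.7 in SCR AAI (0.09 ± 0.26; adjusted p = 0.848), and its sign turned under median-ratio scaling (-0.11). PLAU, the urokinase-type plasminogen activator, was at 233, 263 and 309 CPM in SCR DMSO and 329, 419 and 468 CPM in SCR AAI. Every AAI library was higher, but the change of 0.59 ± 0.22 did not pass (adjusted p = 0.136, and 0.0497 in the fit of all 4 groups). TIMP2, an inhibitor of metalloproteinases that also takes part in MMP2 activation by MMP14, was at -0.39 ± 0.24 (adjusted p = 0.341). Over all roles, 3 genes were higher in every AAI library (LAMB3, MMP1 and PLAU) and 7 lower, against 22.2% and 11.5% of all genes.

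**Figure D2:**
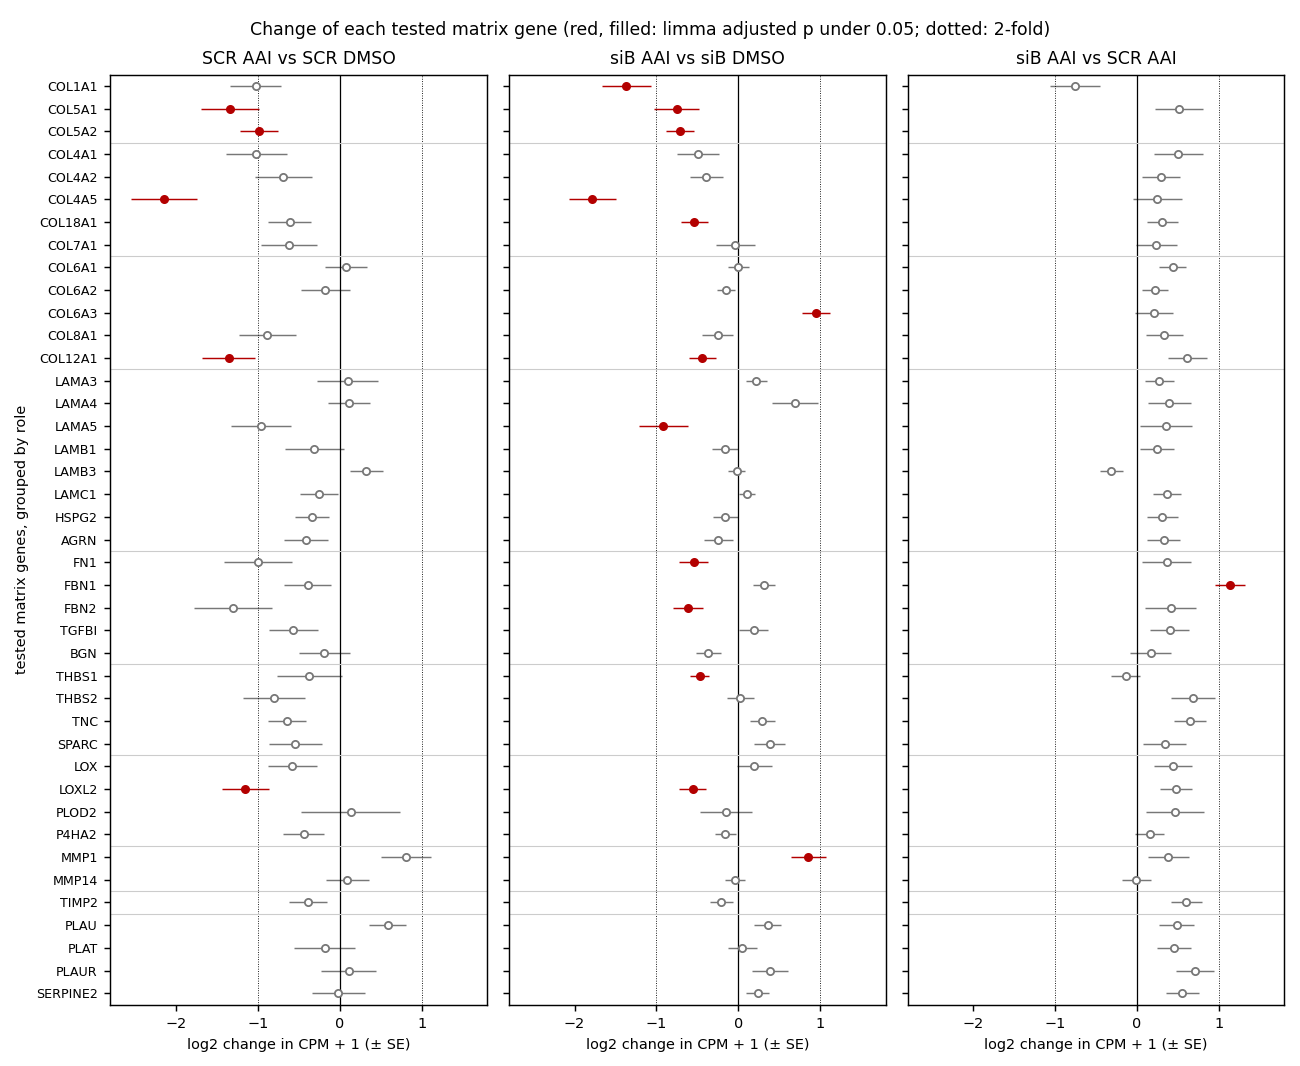
Log2 change of CPM + 1 with its SE for each tested matrix gene, grouped by role, in the 3 comparisons that involve AAI, with filled red points at an adjusted p under 0.05. Points in the SCR panel lie mostly left of 0, and points in the siB AAI against SCR AAI panel mostly right of 0.

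In siB cells, the comparison of AAI with DMSO asked the same of cells with reduced POLR2A. COL4A5 and COL1A1 decreased more than 2-fold. In all 11 of 41 genes fell, where 21.8% of all genes did, and MMP1 and COL6A3 rose. The siB DMSO libraries lay closer together than those of SCR DMSO, as the coefficients of variation given above show. Replicates 2 and 3 of siB DMSO were the closest pair within any group. Their chi-square of read counts per degree of freedom was 3.61, against 20.6 to 257 for the other pairs. The part of this in the number of genes that passed was not tested.

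COL4A5 was at 18.5, 12.7 and 13.5 CPM in siB DMSO and at 6.25, 2.26 and 3.0 CPM in siB AAI (-1.79 ± 0.29; adjusted p = 7.6e-04). COL1A1 was at 27.9, 31.0 and 31.2 CPM in siB DMSO and at 19.8, 6.92 and 9.54 CPM in siB AAI (-1.37 ± 0.30; adjusted p = 0.00408). In both genes replicate 1 of siB AAI was the highest of its group and still below all DMSO libraries. Both were called in all 15 alternative fits.

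Thus 2 of 41 genes were lowered at least 2-fold (5.79% of all 14928 genes tested) and 0 were raised (13.9% of all genes), with 4 at an unadjusted p under 0.05 in that direction and 1, COL6A3, raised by limma with voom. At any fold 11 fell and 2 rose (30.4% of all genes). The number that fell was 6 without siB DMSO replicate 2 or 3 or siB AAI replicate 2 or 3, 8 without siB DMSO replicate 1, 16 without siB AAI replicate 1 and 3 in the fit of all 4 groups. Shares of all genes were not taken for these repeats or for that fit. Of the 41 genes, 25 were lower (61% against 44.1% of all genes), with a median of -0.15 against 0.10. With libraries left out 1 at a time, 22 to 29 were lower, and 29 of 41 were lower under median-ratio scaling, which moved the median of all genes by -0.11. Under that scaling 1866 genes were raised and 1090 lowered over the whole table, against 2080 and 864. Without siB AAI replicate 1 the number lowered was 4, with COL5A1 and LAMA5 added, and MMP1 was raised.

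The genes that fell came from several roles. Beside COL1A1 and COL4A5, COL5A1 was at 21.8, 26.6 and 23.7 CPM in siB DMSO and 21.7, 8.40 and 14.3 CPM in siB AAI (-0.75 ± 0.28; adjusted p = 0.044), where replicate 1 of AAI nearly met the lowest control. LOXL2 was at 853 ± 61.6 CPM in siB DMSO and 590 ± 148 in siB AAI (-0.56 ± 0.16; adjusted p = 0.0167). COL12A1 was at 30.9, 20.9 and 22.2 CPM in siB DMSO and at 17.9, 17.6 and 17.4 CPM in siB AAI (-0.44 ± 0.17; adjusted p = 0.0482). FN1 was at 10516, 10324 and 9548 CPM in siB DMSO and at 5111, 7776 and 8392 CPM in siB AAI (-0.55 ± 0.18; adjusted p = 0.0286). No AAI library of these 4 genes reached its controls. Of 6 repeats that left out 1 library, COL5A1 passed in 1, LOXL2 in 3, COL12A1 in 1 and FN1 in 3, with adjusted p up to 0.127, 0.0642, 0.118 and 0.0796. All 4 were lost in the fit of all 4 groups (adjusted p = 0.112, 0.0999, 0.214 and 0.24). The other genes that fell, named after their values were seen, were COL5A2, COL18A1 (the source of endostatin), the laminin chain LAMA5, fibrillin-2 (FBN2) and thrombospondin-1 (THBS1), with log2 changes of -0.91 to -0.47. COL18A1 and LAMA5 each passed in 2 of 6 such repeats and the other 3 in all 6. COL5A2 was lowered at least 2-fold with a pseudocount of 0.1. In the fit of all 4 groups COL5A2 passed, and COL18A1, LAMA5, FBN2 and THBS1 did not (adjusted p = 0.092, 0.086, 0.248 and 0.275).

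The genes that rose were also chosen after their values were seen. MMP1, interstitial collagenase, which cuts fibrillar collagen, was at 9.06, 7.53 and 6.97 CPM in siB DMSO and 10.6, 17.4 and 18.1 CPM in siB AAI (0.86 ± 0.22; adjusted p = 0.00829). COL6A3, a chain of type VI collagen, stayed low, at 0.684, 0.361 and 0.335 CPM in siB DMSO and 1.77, 1.8 and 1.82 CPM in siB AAI (0.95 ± 0.17; adjusted p = 0.00148). At these levels the pseudocount of 1 holds the change of COL6A3 below 2-fold, and it was 1.81 with a pseudocount of 0.1 and 1.96 by voom. Neither gene overlapped between groups, and both passed in all 6 repeats without a library. COL4A2, COL6A2, AGRN, FBN1, SPARC, MMP14, TIMP2 and PLAU, the most abundant or otherwise named genes of their roles, did not pass, with adjusted p of 0.0837 to 0.787. In all, 2 genes were higher and 11 lower without overlap, against 34.2% and 26.6% of all genes.

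Against SCR AAI, siB AAI asked how knockdown altered injured cells. Most matrix genes were higher in the knockdown by a small margin, and fibrillin-1 was the 1 gene that was raised. FBN1, the backbone of elastic microfibrils and the gene altered in Marfan syndrome, was at 45.9, 44.1 and 67.2 CPM in SCR AAI and 103, 117 and 124 CPM in siB AAI. The groups were well apart. Its log2 change was 1.14 ± 0.19 (adjusted p = 0.00433), and it was called in all 15 alternative fits with log2 changes of 1.03 to 1.33. In DMSO, FBN1 was at 90.9, 52.3 and 65.4 CPM with SCR and 109, 90.5 and 78.8 CPM with siB, which overlapped.

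One of 40 genes was raised (3.04% of all 14946 genes tested), and the same gene was the 1 that rose at any fold (5.49% of all genes). None was lowered (0.629% of all genes) or fell (3.79% of all genes), with 2 at an unadjusted p under 0.05 in that direction and 0 lowered by limma with voom. Direction was one-sided all the same: 36 of 40 genes were higher (10% lower, against 49.7% of all genes), with a median of 0.36 against 0.00. Leaving out 1 library at a time kept 33 to 37 higher, with a median of 0.19 (without siB AAI replicate 1) to 0.50. Without overlap, 7 genes were higher and 1 was lower, against 15.1% and 15.8% of all genes.

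Same-numbered libraries deviated together here as well. Replicate 1 held the highest level of its group for 18 of 41 matrix genes in SCR AAI and for 28 in siB AAI, with those 18 among the 28, COL4A1, LAMA5, SPARC and TIMP2 among them. Shares of all genes were not taken, and 18 of 41 alone would not set 1 of 3 libraries apart. With the replicate number as a block, 19 genes rose (15.2% of all genes) and 1, COL1A1, fell (13.8% of all genes). Among those that rose were TIMP2 (0.60 ± 0.14; blocked adjusted p = 2.6e-04), LOXL2 (0.47 ± 0.14; 0.00531), PLAU (0.48 ± 0.14; 0.00434), COL12A1 (0.62 ± 0.17; 0.00197) and COL5A1 (0.51 ± 0.17; 0.0146), each under 2-fold. In that fit limma drew the spread of each gene wholly from genes of like level, and without the block the adjusted p of these 5 genes were 0.0613 to 0.301. Without SCR AAI replicate 1, 8 genes rose at any fold, and without siB AAI replicate 1, 2 rose and COL1A1 was lowered. Shares of all genes were not taken for these repeats.

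The 4 genes that were lower were COL1A1, LAMB3, THBS1 and MMP14, and none passed without the block. LAMB3, a chain of laminin-332, was the 1 gene lower without overlap, at 130, 138 and 134 CPM in SCR AAI and 108, 103 and 113 CPM in siB AAI (-0.31 ± 0.14; adjusted p = 0.193). COL1A1 was at 23.7, 17.2 and 17.5 CPM in SCR AAI and 19.8, 6.92 and 9.54 CPM in siB AAI, with overlap through replicate 1 of siB AAI (-0.76 ± 0.30; adjusted p = 0.137, and 9.7e-05 with the block). COL4A5 was low in both, at 2.92 ± 0.99 and 3.84 ± 2.12 CPM (0.25 ± 0.30; adjusted p = 0.651).

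Without injury, siB DMSO was compared with SCR DMSO, and no matrix gene passed the test. Of 40 tested, limma called 0 raised and 0 lowered, and it called 0% of all 13606 genes in either direction. At an unadjusted p under 0.05 there was 1 in each direction, against 479 higher and 165 lower over all genes, and voom called none. PLAU was at 233, 263 and 309 CPM in SCR DMSO and 423, 446 and 443 CPM in siB DMSO (0.71 ± 0.15; adjusted p = 0.935), and SPARC at 925, 937 and 582 CPM and 516, 532 and 540 CPM (-0.59 ± 0.21; adjusted p = 1). Neither overlapped between groups, and neither passed. POLR2A, the target of the knockdown, was lower without overlap and did not pass either (-1.01 ± 0.13; limma adjusted p = 0.505). The test thus missed a decrease of about 2-fold in its own target. That no matrix gene passed therefore does not show that matrix genes were unchanged.

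Whether the AAI response itself differed with the siRNA was tested by the interaction. Of 41 genes, limma found 0 at an adjusted p under 0.05, where 1.61% of all 15325 genes passed, and 4 had an unadjusted p under 0.05 (TNC, COL12A1, SPARC and FBN1, all in the positive direction, with TNC named after its values were seen). By voom there were 0. The coefficient was positive, that is less decrease or more increase in siB cells, for 33 of 41 genes. It was negative for 19.5% of them, against 56.2% of all genes, and the medians were 0.28 and -0.06. Leaving out 1 library at a time kept 29 to 33 positive. Without SCR DMSO replicate 2 it was 29, and the medians were 0.33 and 0.06 over all genes. With median-ratio scaling 34 were positive, with medians of 0.36 and 0.01. The lowest adjusted p was that of tenascin-C (TNC), a glycoprotein of injured and healing tissue. TNC was at 168, 117 and 140 CPM in SCR DMSO and 88.7, 75.7 and 106 CPM in SCR AAI, but at 115, 119 and 109 CPM in siB DMSO and 178, 114 and 135 CPM in siB AAI (interaction 0.94 ± 0.28; adjusted p = 0.134). It passed with median-ratio scaling and without SCR DMSO replicate 2. For COL12A1 and FBN1 the interaction was 0.92 ± 0.36 (adjusted p = 0.292) and 0.70 ± 0.32 (adjusted p = 0.366). The comparison of siB AAI with SCR AAI shares libraries with both comparisons of AAI with DMSO, so their values are set side by side and not correlated.

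Many matrix genes are long, and their changes were also read by span. On hg38 with GENCODE release 44 the matrix genes spanned 7.81 to 401 kb with a median of 72.4 kb: 11 were short (under 30 kb), 17 medium and 19 long (over 100 kb). In SCR cells the median log2 change under AAI was -0.06 for 10 short matrix genes, -0.41 for 13 medium and -0.69 for 17 long ones. Over all genes tested these medians were 0.21, 0.26 and -0.09. All 4 genes lowered in SCR cells were long: COL4A5 (chromosome X, 108439838 to 108697545), COL5A1 (chromosome 9, 134641803 to 134844843), COL12A1 (chromosome 6, 75084326 to 75206267) and LOXL2 (chromosome 8, 23296897 to 23425328). The share of long genes among all lowered genes was not taken. The short gene COL1A1 was also lowered in SCR cells with the replicate block (limma blocked adjusted p = 0.0236), with median-ratio size factors and in the fit of all 4 groups. In siB cells the medians were 0.10, -0.03 and -0.39 for the short, medium and long matrix genes, against 0.05, 0.18 and -0.03 over all genes. COL1A1, lowered in siB cells, spans 17.5 kb (chromosome 17, 50184101 to 50201632) and was the short gene with the largest decrease. Spearman's rho of change and span was -0.44 over 40 genes in SCR cells and -0.32 over 41 in siB cells, as a description across genes measured in the same libraries. For siB AAI against SCR AAI it was 0.20 over 40 genes, and medians were 0.36, 0.36 and 0.38, against -0.07, 0.01 and 0.13 over all genes.

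**Figure D3:**
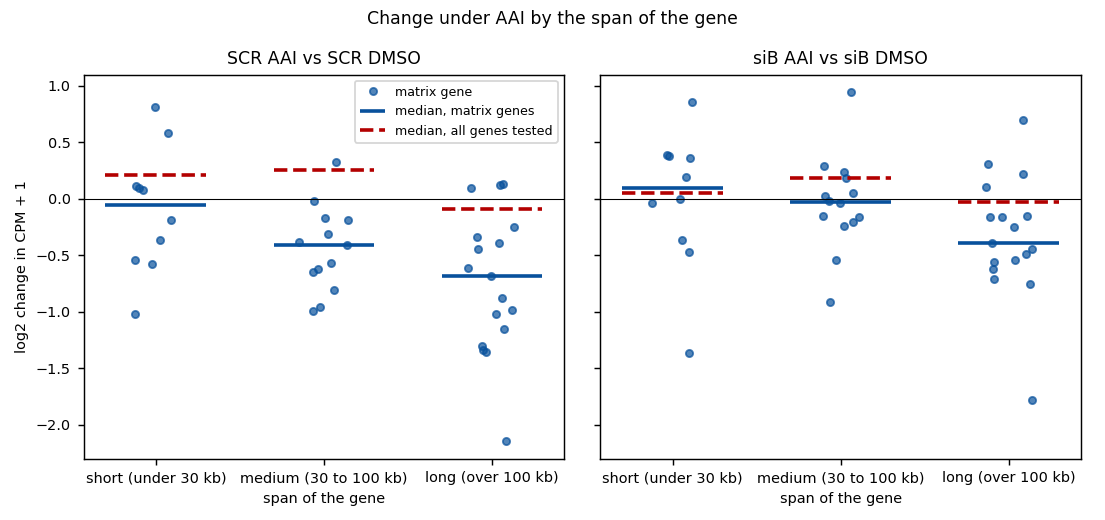
Log2 change under AAI of each tested matrix gene by the span of the gene, with the median of the matrix genes (solid) and of all genes tested (dashed). In SCR cells the matrix median lay below that of all genes in every class, and in siB cells it did so in the medium and long classes.

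Ratios within a library were compared for 6 pairs of partners, AAI against DMSO within siRNA (2-sided exact permutation, 400 arrangements, smallest possible p = 0.005, adjusted over the 6). The ratio of COL1A1 to COL1A2, the 2 chains of type I collagen, was lower under AAI, at a log2 difference of -1.61 (exact permutation p = 0.005; adjusted p = 0.03). It was -1.14 in SCR and -2.08 in siB cells, and every AAI library lay below every DMSO library of the same siRNA. COL1A2 was at 0.167 to 1.70 CPM, which the pseudocount of 1 dominates, so the size of the difference depends on the pseudocount (-2.28 with 0.1). In SCR cells the ratio largely followed COL1A1, which changed by -1.02. In siB cells COL1A1 changed by -1.37, and COL1A2, too low to test, was higher without overlap. It was at 0.342, 0.271 and 0.167 CPM in siB DMSO and 1.70, 1.11 and 0.536 CPM in siB AAI. Without any 1 of the SCR AAI libraries the adjusted p of the ratio was 0.06. The ratio of PLAU to SERPINE2, its inhibitor protease nexin-1, was higher by 0.36 (exact permutation p = 0.015; adjusted p = 0.04), and that of COL6A1 to COL6A2 by 0.20 (exact permutation p = 0.02; adjusted p = 0.04). These 2 differences passed in 4 and 2 of 12 repeats that left out 1 library, with adjusted p up to 0.19 and 0.135, and neither passed without SCR DMSO replicate 2.

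MMP14 to TIMP2, a protease and its inhibitor, differed by 0.32 (exact permutation p = 0.08; adjusted p = 0.12). Without SCR DMSO replicate 2, which was at -0.50 against -1.26 and -1.61 in its group, that difference was 0.48 (adjusted p = 0.015). COL4A1 to COL4A2, the head-to-head pair, stayed between -1.08 and -0.13 in all 12 libraries, and the difference of -0.22 did not pass (exact permutation p = 0.165; adjusted p = 0.198). It was lower under AAI between same-numbered libraries for each number and siRNA, and with the replicate number as a block the adjusted exact permutation p was 0.0469. That block also paired the siB libraries, which were not taken as paired. With every difference in the same direction, its p before adjustment was the smallest that the block allows, which is above 0.005. LAMB1 to LAMC1, chains of the same laminin trimers, differed by -0.16 (exact permutation p = 0.335; adjusted p = 0.335).

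**Figure D4:**
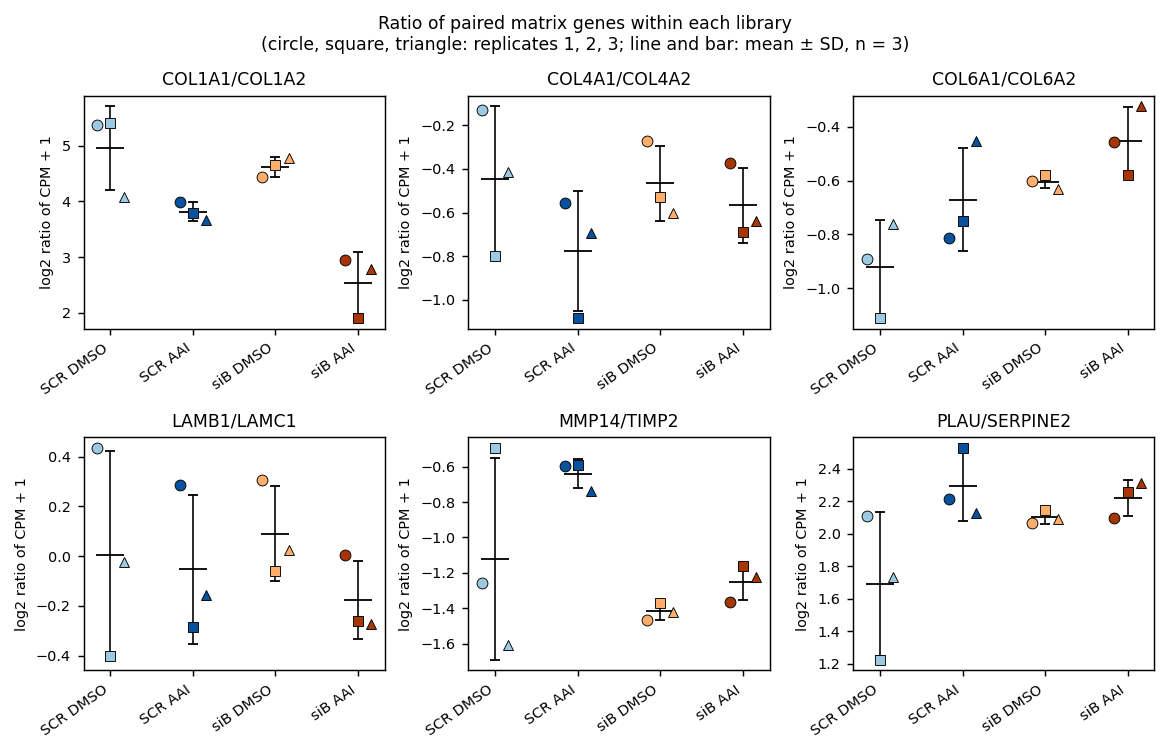
Log2 ratio of CPM + 1 of 6 gene pairs in each library by group, with mean and SD of 3 libraries. COL1A1/COL1A2 was lower in all AAI libraries than in the DMSO libraries of the same siRNA, while LAMB1/LAMC1 overlapped throughout.

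A wider list of 96 other matrix genes was set beside these. In SCR cells AAI raised 4 and lowered 1 of 79 tested (median -0.17), in siB cells it raised 9 and lowered 3 of 82 (median -0.06), and siB AAI against SCR AAI raised 5 and lowered 1 of 82 (median 0.25, with 67 higher). The shares raised and lowered over all genes were 7.73% and 2.73%, 13.9% and 5.79%, and 3.04% and 0.629%. TNXB, which encodes tenascin-X, was nearly silent in SCR DMSO at 1.5 ± 0.35 CPM and was at 23.5 ± 5.35 in SCR AAI, 2.28 ± 0.22 in siB DMSO and 60.3 ± 17.8 in siB AAI (3.28 ± 0.27 in SCR, adjusted p = 2.6e-04; 4.19 ± 0.21 in siB, adjusted p = 1.0e-06). COL11A2, a type XI collagen chain, went from 1.35 ± 1.20 to 16.9 ± 4.10 CPM in SCR (3.05 ± 0.42; adjusted p = 0.0028), and EFEMP2 (fibulin-4) from 0.293 ± 0.183 to 13.9 ± 0.42 CPM in siB cells (3.54 ± 0.17; adjusted p = 1.1e-06). TNXB overlaps 2 protein-coding genes, EFEMP2 overlaps 1, and COL11A2 begins 1089 bases past the end of RXRB on the same strand, so reads from a neighbor could not be told from their own.

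Among wider genes that fell, COL11A1 went from 30.7 ± 7.10 to 7.28 ± 2.20 CPM in SCR cells (-1.95 ± 0.31; adjusted p = 0.00563) and from 20.7 ± 5.75 to 8.91 ± 3.93 in siB cells (-1.17 ± 0.28; adjusted p = 0.00679). CYR61, a matricellular target of YAP, went from 1078 ± 33.6 to 372 ± 60.0 CPM in siB cells (-1.55 ± 0.12; adjusted p = 1.5e-05), and the metalloproteinase MMP11 from 14.3 ± 1.42 to 6.08 ± 3.33 CPM there (-1.20 ± 0.28; adjusted p = 0.00582). TIMP1, an inhibitor of metalloproteinases, did not pass in SCR cells (0.07 ± 0.23; adjusted p = 0.873) and rose in siB cells, from 197 ± 13.1 to 244 ± 13.8 CPM (0.31 ± 0.10; adjusted p = 0.0261).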

How the data were processed

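RNA sequencing had been run on 12 libraries of HK-2 cells (poly-A RNA, 4 groups of 3). The authors aligned paired-end reads to hg38, obtained gene counts under the UCSC annotation of that build in BioJupies, and deposited log10 values, log10 of CPM plus 1. The aligner and strand setting are not given in the sources used here. Groups were taken from the sample titles, because the treatment field read DMSO for every sample. Table columns named A1 to A3 and D1 to D3 under SCR or siB were read as replicates of AAI and DMSO. The labels also give library names A1 to A12 in another order, which the columns cannot follow, since A1 to A3 occur under both siRNAs. The assignment of values to groups rests on that reading. CPM was recovered as 10 raised to the deposited log10 value, minus 1. In all libraries 100% of values were whole reads within 0.1 read. Limits from 0 reads (3 reads of the total) cover counting error only. No 2 libraries were copies of each other.

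Tests used limma 3.58.1 in R 4.3.3 (lmFit, eBayes with trend) on log2 of CPM plus 1, fitted to the 6 libraries of each pair of groups, over genes that reached a CPM of 1 in 3 or more, with Benjamini-Hochberg adjustment over all genes tested. Raised or lowered means an adjusted p under 0.05 and at least 2-fold, and rose or fell the same p at any fold. The interaction was fitted to all 12 libraries with no fold limit. The 6 ratios of gene pairs were tested by 2-sided exact permutation. The fits were tested on simulated data. Named genes were all called members, those past the interaction test, the most abundant gene of each role, and a few of the wider list, of which 1 is not reported here. The members, gene lists, tests and alternatives were chosen with earlier results of these data known. Gene spans came from GENCODE release 44 (hg38) and promoters from RefSeq (GRCh38.p14). Alternatives were no fold limit, median-ratio size factors, a mean CPM of 5 or more, no filter, a pseudocount of 0.1, CPM without the variable transcript AC010970.2, all 4 groups in a fit, a replicate block, voom on recovered reads, no trend, and leaving out each library.

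Replicate numbers, which come from the titles, were checked by how far libraries with the same number departed together from their group means over 15325 genes. The correlations were 0.422, 0.473 and 0.338 for SCR AAI and SCR DMSO and 0.614, 0.318 and 0.292 for siB AAI and SCR AAI, so these were taken as paired. They were 0.21, 0.026 and 0.195 for siB AAI and siB DMSO and 0.726, 0.587 and -0.193 for the DMSO groups, which were not. The limma fits had no block unless one is named, so pairing enters only the values given with the replicate block.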

Additional observations from a re-analysis of the deposited data

How the results depend on the processing

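The number of matrix genes lowered by AAI in SCR cells, 4, was 1 with no filter, 2 at a mean CPM of at least 5, 7 with median-ratio size factors, 7 with the replicate block, and 0 to 5 when a library was left out. For most alternatives the share of all genes was not taken, so such numbers cannot be set against the whole table. In siB cells the number raised, 0, was 2 with no fold limit, 1 with a pseudocount of 0.1, 1 with voom and 0 to 1 with a library left out, and the number lowered, 2, was 11 with no fold limit and 2 to 4 with a library left out. The number lowered in siB AAI against SCR AAI, 0, became 1 only without siB AAI replicate 1 (range 0 to 1), and the interaction count, 0, was 1 with median-ratio size factors and 0 to 1 with a library left out. The paired analysis of the ratio of COL4A1 to COL4A2, a replicate block with unchanged difference of -0.215, gave an adjusted exact permutation p of 0.0469. It paired the siB libraries too, and its p before adjustment was the smallest that the block allows. With a library left out, ratio differences ran from -1.83 to -1.45 (COL1A1/COL1A2), 0.146 to 0.241 (COL6A1/COL6A2), 0.202 to 0.48 (MMP14/TIMP2) and 0.245 to 0.466 (PLAU/SERPINE2). The block changed no other number raised or lowered, interaction count or call of a ratio by more than 1.5 times. Under the block in siB AAI and siB DMSO, whose libraries were not taken as paired, 2 genes were lowered as before. Of 42 changes of single genes, 38 kept their sign in every alternative. The exceptions did not pass the test either way: COL6A2 in SCR cells (-0.35 to 0.14 with a library left out) was 0.14 without SCR DMSO replicate 2, MMP14 in SCR cells (-0.13 to 0.24) was -0.11 with median-ratio size factors, -0.13 without SCR DMSO replicate 3 and -0.049 without SCR AAI replicate 1, MMP14 in siB cells (-0.14 to 0.049) was 0.049 without siB AAI replicate 2, and COL4A5 in siB AAI against SCR AAI (-0.088 to 0.49) was -0.088 without siB AAI replicate 1. The causes were not tested. Depth limits genes near 0, and 3 libraries a group limit the rest.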
